A study of Mus musculus with 15 samples.

Results

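The mitotic genes described here are 37 mouse genes for the kinases, cyclins, spindle motors, kinetochore proteins and checkpoint proteins that carry a cell through mitosis. They were chosen by name, with no measured value in the rule, from 35675 genes quantified in RNA-seq of 15 cultures. All 37 were found and all 37 passed the filter on low counts, among 19331 genes tested.

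The cultures came from 5 conditions of 3 lines of mouse embryonic fibroblasts (MEFs), and each line was used in all 5. The MEFs were primary cells of genotype Tg:Pax7-nGFP/C57BL6;DBA2. A line was derived from its own mouse embryo, which makes the 3 cultures of a condition biological replicates. Pax7-nGFP is a nuclear fluorescent reporter for Pax7, a gene of muscle stem cells, and it was carried by all groups. Of the conditions, 4 received 4 transfections of a synthetic mRNA for MyoD, a transcription factor that turns other cells towards muscle, and were collected at day 10. MyoD + F/R/C + CP cultures had forskolin (F, a cAMP agonist), RepSox (R, an inhibitor of the TGF-β receptor), CHIR99210 (C, an inhibitor of GSK3) and CP690550 (CP, a JAK inhibitor) in the medium. MyoD + F/R/C + SP cultures had F/R/C with SP600125 (SP, a JNK inhibitor), MyoD + F/R/C cultures had F/R/C alone, and +MyoD cultures had no compound. MEFs were untransfected cells in the same iMPC medium, the medium of induced myogenic progenitor cells. The MEFs are labelled day 10, while the deposited data name them day 0. Transfected cultures also had the interferon-binding protein B18R during the transfections and for a short time after the last one. No culture was transfected without MyoD mRNA. Time in culture, B18R, the transfection itself and MyoD therefore cannot be told apart in comparisons with MEFs. Where MyoD mRNA alone is named below, the +MyoD cultures, with no compound, are meant.

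Mitosis begins when the kinase CDK1 is switched on by cyclins A and B, with the help of the Aurora and Polo-like kinases. The duplicated chromosomes then attach to the spindle through kinetochores, the spindle checkpoint holds the cell until all are attached, and the anaphase-promoting complex (APC/C) marks securin and cyclin B for destruction. The genes for these proteins are transcribed late in the cell cycle and are silent in cells that have left it, as fibroblasts do in quiescence and myoblasts do when they fuse into myotubes. In bulk RNA, fewer cycling cells and less of an mRNA per cell cannot be told apart.

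Many promoters of genes of this kind hold a short element near the transcription start, the cell cycle genes homology region (CHR), through which the DREAM and B-MYB-MuvB complexes are known to act, often together with CCAAT boxes bound by NF-Y. RefSeq promoter windows (build GRCm38.p6, 250 bases before to 50 after the start) were at hand for 30 of the 37 genes. Aurkb, Tpx2, Ccna2, Spc24, Incenp, Foxm1 and Kif20a were not in that table. The stretches below are shown because they carry the element in genes whose levels are given further on. Each is 30 bases, 5′ to 3′ on the gene's strand, with the CHR word in capitals (TTTGAA or TTCGAA; Ttk and Ube2c have it on the opposite strand, where it reads TTCAAA on the strand shown).

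Cdk1 (chr10:69352910-69352939, minus strand): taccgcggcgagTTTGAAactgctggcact
Cdc20 (chr4:118437344-118437373, minus strand): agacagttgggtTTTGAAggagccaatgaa
Bub1 (chr2:127831828-127831857, minus strand): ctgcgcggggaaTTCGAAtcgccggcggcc
Ttk (chr9:83834684-83834713, plus strand): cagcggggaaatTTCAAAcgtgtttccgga
Cenpa (chr5:30666890-30666919, plus strand): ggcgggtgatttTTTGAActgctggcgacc
Spc25 (chr2:69206172-69206201, minus strand): ggcggtggagagTTTGAAattgaaagactg
Prc1 (chr7:80294434-80294463, plus strand): cctctggctcggTTTGAAttccgcggggtc
Kif23 (chr9:61946780-61946809, minus strand): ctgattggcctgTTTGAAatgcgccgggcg
Ube2c (chr2:164769888-164769917, plus strand): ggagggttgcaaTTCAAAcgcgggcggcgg

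A CHR word (TTTGAA or TTCGAA, both strands) was found in the windows of 23 of the 30 mitotic genes (76.7%), against 21.7% of the 27025 genes in the table. It started between 60 bases before and 30 after the start in 19 of the 30, against 6.07% of all genes. CCAAT, read on both strands, was also found in 23 of the 30 (41.1% of all genes), and the same window held both in 21 (8.61% of all genes). The Cdc20 and Kif23 stretches show both. Cdc20 has CCAAT as printed, and Kif23 has ATTGG, which is CCAAT on the other strand. Words that E2F factors bind (TTCCCGC or TTGGCGC, both strands) were found in 3 of the 30, or 10.0%, against 7.79% of all genes. Of 47 DNA replication genes 38 were in the table, of which 21.1% had a CHR word and 52.6% an E2F word. Among 71 other mitotic genes, 61 in the table, 70.5% had a CHR word. The 7 mitotic genes with no CHR word in the window were Birc5, Ccnb1, Cenpe, Mad2l1, Nuf2, Nusap1 and Pttg1, and a word outside the window would not be seen. These matches are letters, not measured binding.

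**Figure D1:**
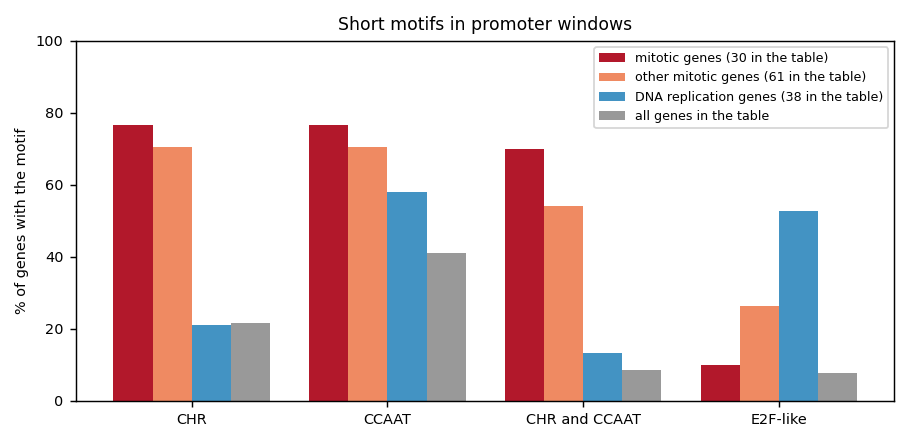
Share of genes (%, y axis) whose RefSeq promoter window holds a CHR word, CCAAT, both, or an E2F-like word, for the mitotic genes, other mitotic genes, DNA replication genes and all genes in the table. CHR words stood in 76.7% of the mitotic genes, against 21.1% of the replication genes and 21.7% of all genes.

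The total of estimated counts per library lay between 29393872 and 41885769, with a median of 38458894, so depth did not differ much between groups. CPM, the count scaled to the library's total after adjustment by TMM factors, was used to compare conditions. Myod1 was read at 787 to 3845 CPM in the 12 transfected libraries and at 0.113 to 0.556 CPM in the 3 MEF libraries, in keeping with the labels, although transfected and endogenous Myod1 RNA cannot be told apart. Mitochondrial transcripts took 2.52 to 5.06% of the 9 libraries with F/R/C and 1.31 to 1.80% of the +MyoD and MEF libraries. In the MEF libraries the 8 fibroblast markers summed to between 8847 and 10330 CPM, led by Vim, and 10 skeletal muscle markers to at most 47.5 CPM.

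As a group the mitotic genes were far lower in +MyoD cultures than in MEFs, and less so when F/R/C was in the medium. Their CPM summed to 1127 ± 241 in MyoD + F/R/C + CP cultures, 1028 ± 172 in MyoD + F/R/C + SP cultures, 814 ± 228 in MyoD + F/R/C cultures, 435 ± 53.6 in +MyoD cultures and 4223 ± 216 in MEFs (SD, n = 3 each). Relative to its own mean in MEFs, the median gene stood at 26.3% with CP, 24.1% with SP, 19.6% with F/R/C and 10.3% with MyoD mRNA alone. No gene reached its MEF mean in any transfected condition, and the nearest was Ccnb2 (cyclin B2), at 45.4% with CP. The genes were far apart in abundance. In TPM, which is per length and so can be compared between genes, the mean over 15 libraries ran between 7.57 for Ttk and 84.2 for Cdk1.

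**Figure D2:**
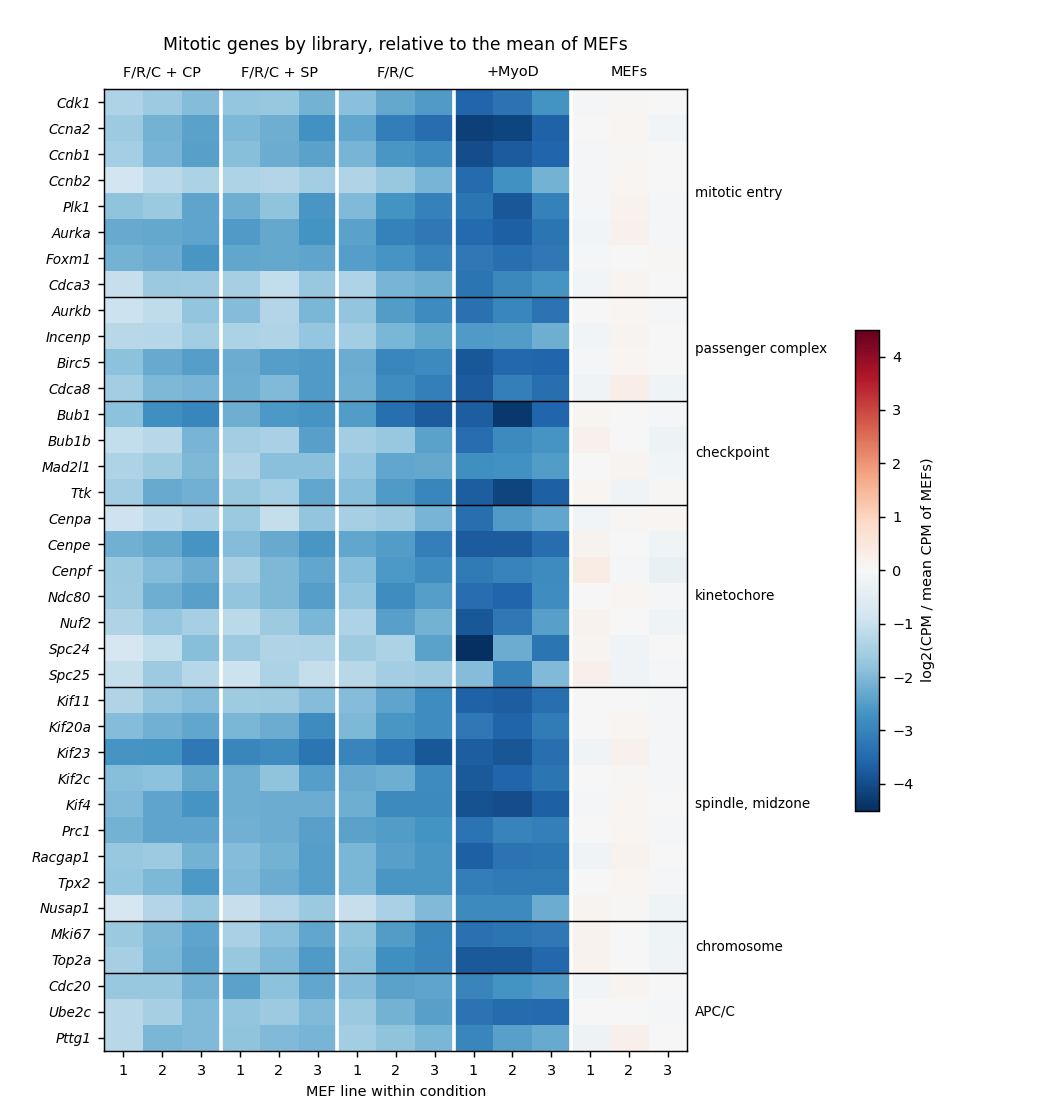
Level of each of the 37 mitotic genes (rows, grouped by role) in each of the 15 libraries (columns, 3 MEF lines per condition; all but the MEFs received MyoD mRNA), as log2 of CPM over the gene's mean CPM in MEFs. Every +MyoD library is blue throughout, with a median gene at 9.37, 10.0 and 10.9% of the MEF mean in lines 1, 2 and 3, and the 9 libraries with F/R/C are mostly paler.

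The first comparison, +MyoD against MEFs, sets cultures transfected with MyoD mRNA and given no compound against untransfected cells. All 37 genes were called lower and none higher by edgeR's quasi-likelihood test, at a Benjamini-Hochberg adjusted p of at most 0.05 and a change of more than 0.5 on the log2 scale, where 18.0% of the 19331 genes were called lower and 22.8% higher. The median log2 fold change of the 37 was −3.28, against 0.12 over all genes tested. In all 37 the +MyoD and MEF libraries did not overlap, as was so for 24.7% of all genes in this direction. All 37 were called lower in each of the 14 alternative settings too. The second comparison, MyoD + F/R/C against +MyoD, asks what the compounds added. There 31 genes were called higher and none lower, where 10.9% of all genes were called higher and 8.39% lower, and the other 6 (Bub1, Kif23, Cenpf, Cdc20, Mad2l1 and Incenp) also had positive fold changes. The median was 0.94, against 0.03 over all genes.

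**Figure D3:**
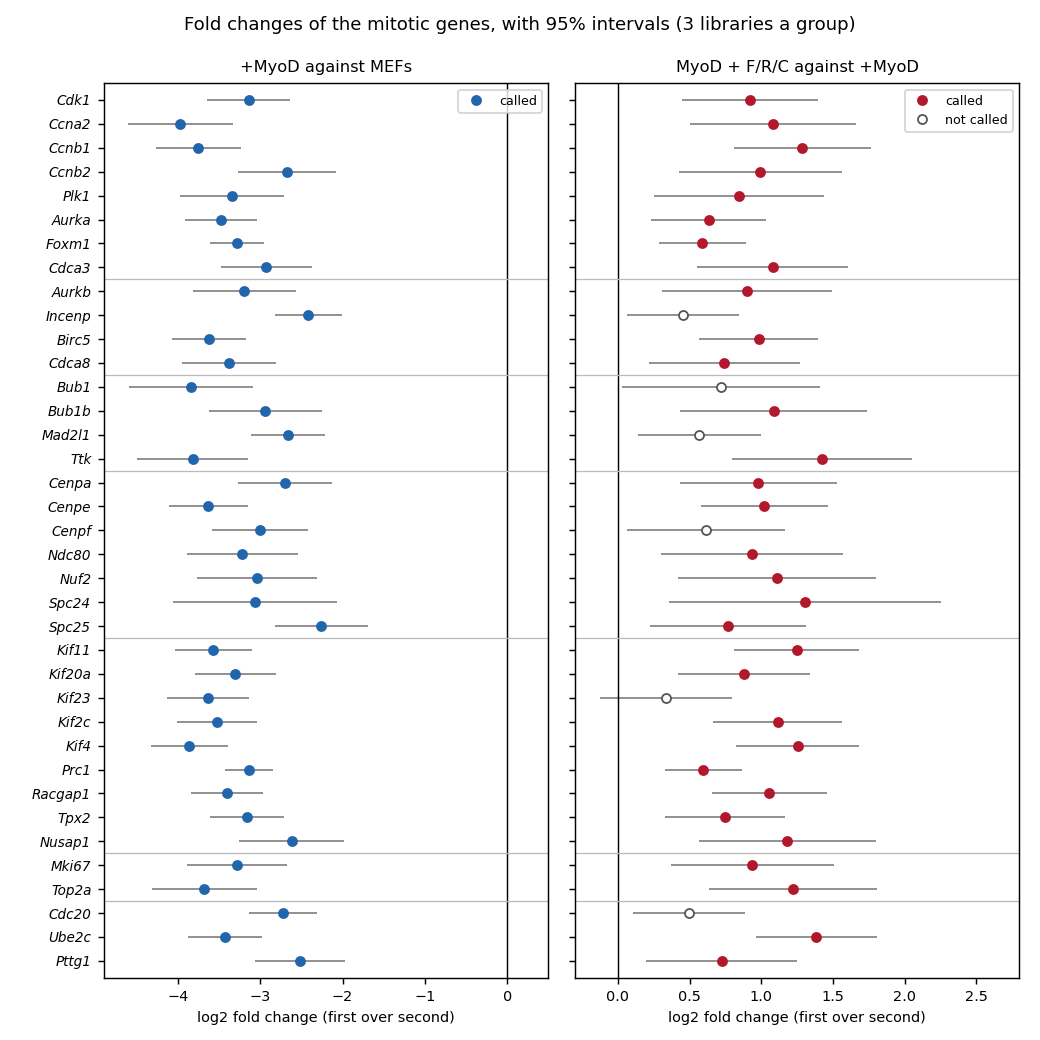
Log2 fold change of each mitotic gene (points) with its 95% interval (lines) from edgeR, for +MyoD against MEFs (left) and MyoD + F/R/C against +MyoD (right), 3 libraries a group. Filled points were called and open points were not. All 37 lie between −3.97 and −2.26 on the left and between 0.33 and 1.43 on the right.

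Among the 8 regulators of mitotic entry, all were lower with MyoD mRNA alone and all 8 were higher with F/R/C than without. Cdk1, the kinase at the centre of the switch, had 40.9, 30.7 and 26.1 CPM in MyoD + F/R/C cultures, 12.7, 15.1 and 23.7 CPM in +MyoD cultures and 143, 157 and 154 CPM in MEFs (lines 1, 2 and 3). The 3 groups did not overlap, but the lowest F/R/C library and the highest +MyoD library, both of line 3, were close. Ccnb1, for cyclin B1, had 40.6, 27.7 and 24.8 CPM with F/R/C, 10.8, 12.8 and 14.5 CPM with MyoD mRNA alone and 163, 179 and 172 CPM in MEFs. Its change was −3.75 ± 0.24 on the log2 scale (SE) for +MyoD against MEFs (adjusted p = 2.44e-08, edgeR) and 1.29 ± 0.22 for MyoD + F/R/C against +MyoD (adjusted p = 0.000773, edgeR). These libraries separated clearly. Ccna2, for cyclin A2 (ENSMUSG00000027715.9, chr3:36564865-36572150, minus strand, GRCm38), was the gene that fell most, by 3.97 on the log2 scale with MyoD mRNA alone (SE 0.30, adjusted p = 8.77e-08, edgeR). It had 33.1, 19.7 and 15.6 CPM with F/R/C, 9.15, 9.72 and 13.4 CPM in +MyoD cultures and 171, 182 and 155 CPM in MEFs. In line 1 the F/R/C culture had more than 3 times the +MyoD level, while in line 3 the 2 cultures were close. Foxm1, the transcription factor that drives many genes of this phase, rose less than most with F/R/C, with 32.1, 28.7 and 22.9 CPM against 19.2, 17.0 and 19.3 CPM in +MyoD cultures (log2 fold change 0.59 ± 0.14, adjusted p = 0.00738, edgeR). Its MEF libraries lay between 172 and 186 CPM. Plk1 and Aurka, for the Polo-like kinase 1 and Aurora A, Ccnb2, and Cdca3, whose product helps to degrade the mitosis inhibitor WEE1, changed by −3.48 to −2.68 for +MyoD against MEFs and by 0.63 to 1.08 for MyoD + F/R/C against +MyoD.

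The chromosomal passenger complex, which corrects wrong attachments and then moves to the midzone, has its kinase Aurora B (Aurkb), its scaffold Incenp, survivin (Birc5) and borealin (Cdca8) in the list. All 4 were called lower in +MyoD cultures than in MEFs, and 3 were called higher with F/R/C. Birc5 had 23.5, 14.5 and 15.005 CPM with F/R/C, 7.89, 9.49 and 9.40 CPM with MyoD mRNA alone and 105, 117 and 108 CPM in MEFs. Its changes were −3.63 ± 0.21 (adjusted p = 9.39e-09, edgeR) and 0.98 ± 0.20 (adjusted p = 0.00203, edgeR). Incenp held the most RNA among the 4 after MyoD mRNA alone, at 18.7% of its MEF mean. Its 35.0, 24.6 and 20.3 CPM with F/R/C overlapped the 17.7, 18.1 and 22.4 CPM of +MyoD cultures, and the change of 0.46 ± 0.18 was not called (adjusted p = 0.0942, edgeR). In MEFs it had 94.6, 113 and 102 CPM.

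Of the 4 spindle checkpoint genes, all were called lower with MyoD mRNA alone and 2 were called higher with F/R/C. Ttk, for the kinase MPS1 that starts the checkpoint signal (ENSMUSG00000038379.15, chr9:83834689-83872389, plus strand), had the largest change with F/R/C among the 37, at 1.43 ± 0.29 (adjusted p = 0.0027, edgeR). It had 8.50, 5.42 and 4.13 CPM in MyoD + F/R/C cultures, 2.44, 1.80 and 2.46 CPM in +MyoD cultures and 33.4, 28.7 and 33.1 CPM in MEFs. It was also the least abundant of the 37 in TPM. Bub1b, for the checkpoint protein BUBR1, had 28.4, 25.8 and 15.8 CPM with F/R/C, 7.80, 11.7 and 13.5 CPM without and 97.4, 83.2 and 72.6 CPM in MEFs, and was called in both comparisons. Mad2l1, for MAD2, had 21.2, 14.2 and 14.5 CPM with F/R/C, 10.5, 10.8 and 12.3 CPM in +MyoD cultures and 70.9, 76.9 and 64.6 CPM in MEFs. The F/R/C libraries were all above those of +MyoD, but the change of 0.57 ± 0.20 missed the threshold (adjusted p = 0.0561, edgeR). Bub1, for the kinase that marks centromeres, had 14.5, 7.90 and 6.12 CPM with F/R/C, 6.30, 4.04 and 6.94 CPM without and 87.5, 81.2 and 79.5 CPM in MEFs. Line 3 was lower with F/R/C than without, and the change was not called (0.72 ± 0.32, adjusted p = 0.136, edgeR).

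The 7 centromere and kinetochore genes had a median change of −3.03 in +MyoD cultures, the nearest to 0 among the role groups of 4 or more genes. Cenpa, for the histone variant that marks centromeres, had 25.5, 22.8 and 16.5 CPM with F/R/C, 6.70, 12.2 and 13.9 CPM in +MyoD cultures and 64.6, 73.3 and 75.7 CPM in MEFs, and was called in both comparisons. Spc25, a subunit of the NDC80 complex that grips microtubules (ENSMUSG00000005233.16, chr2:69193895-69206194, minus strand), fell least of the 37, by 2.26 on the log2 scale (SE 0.26, adjusted p = 5.34e-06, edgeR). It had 13.2, 10.6 and 10.2 CPM with F/R/C, 8.14, 3.87 and 7.98 CPM in +MyoD cultures and 36.9, 28.7 and 29.9 CPM in MEFs. Its partners in that complex, Spc24, Nuf2 and Ndc80, were called in both directions with larger errors, and each had a +MyoD library that overlapped the F/R/C libraries. Spc24 was the least read gene of the 37, with as few as 21.6 estimated counts in 1 library. Of the motor Cenpe and the large kinetochore protein Cenpf, Cenpe was called higher with F/R/C and Cenpf was not (0.61 ± 0.26, adjusted p = 0.107, edgeR).

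The 9 spindle and midzone genes had a median of −3.41 on the log2 scale with MyoD mRNA alone, all of them called lower. Prc1, which bundles the microtubules of the midzone, had 37.4, 34.3 and 30.4 CPM with F/R/C, 19.8, 24.4 and 23.3 CPM with MyoD mRNA alone and 195, 212 and 186 CPM in MEFs. The spread within each condition was narrow, with changes of −3.13 ± 0.14 (adjusted p = 7.91e-10, edgeR) and 0.60 ± 0.13 (adjusted p = 0.00323, edgeR). Kif20a, a midzone motor, had 48.0, 31.6 and 27.9 CPM with F/R/C, 20.8, 15.9 and 21.8 CPM without and 192, 206 and 180 CPM in MEFs. Kif23, for the motor MKLP1 of the cytokinesis complex centralspindlin (ENSMUSG00000032254.10, chr9:61915905-61946774, minus strand), stayed lowest. It had 16.6, 13.5 and 9.10 CPM with F/R/C, 9.93, 8.99 and 12.1 CPM in +MyoD cultures and 114, 147 and 125 CPM in MEFs. The F/R/C and +MyoD libraries overlapped and the change of 0.33 ± 0.22 was not called (adjusted p = 0.318, edgeR). Racgap1, whose product pairs with that of Kif23 in centralspindlin, was called higher with F/R/C (1.06 ± 0.19, adjusted p = 0.000934, edgeR). At the other end was Nusap1, a microtubule-binding protein of the spindle (ENSMUSG00000027306.15, chr2:119618298-119651244, plus strand). It had 14.1, 10.4 and 7.31 CPM with F/R/C, 3.95, 3.96 and 6.08 CPM without and 31.1, 29.6 and 25.2 CPM in MEFs, so that it stood at 36.9% of its MEF mean with F/R/C, where Kif23 stood at 10.2%. The motors Kif11, Kif2c and Kif4 and the spindle assembly factor Tpx2 were called higher with F/R/C by 0.75 to 1.26.

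Both genes for chromosome structure were called in both comparisons. Top2a, for topoisomerase IIα, which untangles sister chromatids, had the highest CPM of the list. It had 116, 65.5 and 57.0 CPM with F/R/C, 32.3, 32.3 and 37.8 CPM with MyoD mRNA alone and 486, 432 and 397 CPM in MEFs. Mki67, for the proliferation marker Ki-67 that coats mitotic chromosomes, had 78.9, 47.9 and 36.0 CPM with F/R/C, 26.6, 28.5 and 29.8 CPM without and 309, 277 and 241 CPM in MEFs. In both genes the 3 conditions did not overlap, and line 1 was the highest with F/R/C.

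Of the genes around the APC/C, Ube2c, for the ubiquitin-conjugating enzyme of the complex, had 33.0, 23.9 and 19.4 CPM with F/R/C, 10.4, 9.43 and 9.35 CPM in +MyoD cultures and 107, 106 and 102 CPM in MEFs. Its change with F/R/C was 1.39 ± 0.20 (adjusted p = 0.000157, edgeR). Exons of Ube2c overlap those of the muscle troponin gene Tnnc2 on the opposite strand, and whether reads were counted by strand is not given in the sources used here. Cdc20, the activator of the APC/C, had 35.6, 26.1 and 27.1 CPM with F/R/C, 17.7, 21.8 and 23.5 CPM without and 129, 151 and 138 CPM in MEFs. The F/R/C libraries were above those of +MyoD, and the change of 0.49 ± 0.18 was not called (adjusted p = 0.0682, edgeR). Pttg1, for securin, had 10.3, 8.84 and 7.37 CPM with F/R/C, 4.04, 5.65 and 6.38 CPM in +MyoD cultures and 25.9, 35.5 and 30.5 CPM in MEFs, and was called higher with F/R/C (0.72 ± 0.25, adjusted p = 0.0476, edgeR).

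**Figure D4:**
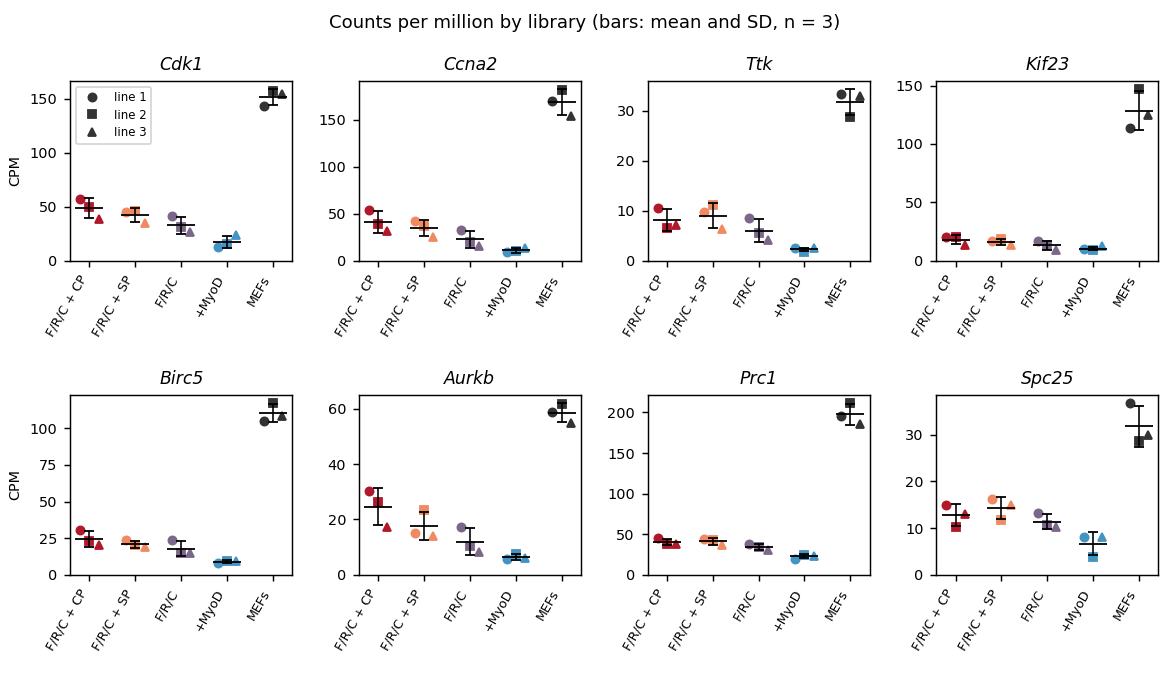
CPM of 8 of the mitotic genes (y axes, starting at 0) in each library, by condition (x axis; all but the MEFs received MyoD mRNA). Symbols mark the 3 MEF lines and bars the mean and SD (n = 3). In Kif23 the F/R/C libraries, at 9.10 to 16.6 CPM, overlap the +MyoD libraries, at 8.99 to 12.1 CPM, while in Ttk they do not.

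The step with F/R/C was uneven between the MEF lines. Within line 1 the median gene was higher by 1.57 on the log2 scale in the MyoD + F/R/C culture than in the +MyoD culture, within line 2 by 0.89 and within line 3 by 0.30. All 37 genes were higher with F/R/C in lines 1 and 2 and 34 in line 3, where Incenp, Bub1 and Kif23 were lower; 26.9% of all genes were higher in all 3 lines. In 31 genes the groups of 3 did not overlap (18.1% of all genes in this direction). The F/R/C library of line 1 held 1068 CPM of mitotic RNA, against 746 CPM in line 2 and 628 CPM in line 3. That library also had more Myod1 (2730 CPM, against 808 and 787 CPM) and a lower sum of 10 skeletal muscle markers (5950 CPM, against 7112 and 9054 CPM). The part of these in the result was not tested. Without that library 16 genes were called higher with F/R/C, and with only the 6 libraries of the comparison 14 were. The direction was the same for all 37 genes in each of the 14 alternatives. All 10 muscle markers were called higher with F/R/C as well, where 10.9% of all genes were. Their median was 2.24, so both the mitotic and the muscle genes were higher in these cultures.

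MyoD + F/R/C against MEFs shows how much of the difference was left. All 37 genes were called lower, where 21.6% of all genes were, with a median of −2.35 and a range of −3.30 (Kif23) to −1.44 (Nusap1). The groups did not overlap in any of the 37 (29.5% of all genes in this direction). The upper 95% bound nearest to 0 was −0.82, so a change of 0 was outside the interval of every gene.

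CP and SP were then each compared with MyoD + F/R/C, to ask what a JAK or a JNK inhibitor added. These 2 comparisons share the 3 MyoD + F/R/C libraries. With CP, all 37 genes had a positive fold change, with a median of 0.45, against 0.00 over all genes tested, and a range of 0.07 (Pttg1) to 1.04 (Aurkb). None was called by edgeR in either direction, where 0.0% of all genes were called higher and 0.0362% lower. At an unadjusted p under 0.05 there were 16, all positive, where 7.91% of all genes were under it in either direction, and DESeq2 called 1, Aurkb (0.367% of all genes were called higher by DESeq2). With SP, 36 of 37 had a positive fold change, with a median of 0.33 and a range of −0.16 (Pttg1) to 0.67 (Bub1). None was called by edgeR, where 0.0% of all genes were called in either direction, and 5 had an unadjusted p under 0.05 (Kif11, Incenp, Foxm1, Ccna2 and Prc1), where 6.62% of all genes did. DESeq2 called 0 of the 37 with SP (0.243% of all genes were called higher). A call also needed a change over 0.5 on the log2 scale, which 15 of the 37 had with CP and 6 with SP. The upper 95% bounds reached 1.62 with CP and 1.35 with SP. With the MEF line as a term in the fit, the medians were 0.47 with CP and 0.35 with SP. The medians of the main fit moved when single libraries were left out, which unpairs the other library of that line. Line 1 held the most mitotic RNA in each of the 3 conditions. With CP the median was 0.29 without line 1 of MyoD + F/R/C + CP and 0.72 without line 1 of MyoD + F/R/C. With SP it was 0.53 without line 1 and 0.18 without line 3 of MyoD + F/R/C.

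Aurkb (ENSMUSG00000020897.12, chr11:69045647-69051664, plus strand) had 30.2, 26.3 and 17.2 CPM with CP, 15.2, 23.3 and 14.1 CPM with SP and 17.3, 10.4 and 8.22 CPM with F/R/C alone. It was higher with CP than without in each line, yet the lowest CP library was at the level of the highest F/R/C library. Its fold change with CP was 1.04, with a 95% interval of 0.46 to 1.62 (adjusted p = 0.237, edgeR). With SP it was 0.55, with an interval of −0.03 to 1.13. Ccna2 had 54.3, 38.9 and 31.5 CPM with CP, 42.1, 36.9 and 25.6 CPM with SP and 33.1, 19.7 and 15.6 CPM with F/R/C alone. Each line was higher with either inhibitor, and the groups overlapped because line 1 was high throughout. Bub1 had 23.3, 12.1 and 10.9 CPM with CP, 18.3, 13.9 and 13.2 CPM with SP and 14.5, 7.90 and 6.12 CPM with F/R/C alone. Foxm1 had 41.2, 38.3 and 29.3 CPM with CP, 35.8, 36.4 and 35.1 CPM with SP and 32.1, 28.7 and 22.9 CPM with F/R/C. It was the only one of the 37 whose SP and F/R/C libraries did not overlap (7.18% of all genes were higher without overlap), and its change of 0.36 was not called (adjusted p = 0.722, edgeR). With CP the libraries of Aurka, Cdca8, Cenpa and Prc1 did not overlap those of F/R/C (7.94% of all genes). Pttg1 stood apart, with 12.8, 7.29 and 7.73 CPM with CP, 8.84, 7.67 and 7.23 CPM with SP and 10.3, 8.84 and 7.37 CPM with F/R/C.

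Compared line by line, 35 of the 37 genes were higher with CP in all 3 lines, which was so for 20.7% of all genes, and the exceptions were Spc25 and Pttg1. With SP 22 were higher in all 3 lines, against 18.7% of all genes. The median differences were 0.34, 0.58 and 0.52 in lines 1, 2 and 3 with CP and 0.06, 0.55 and 0.44 with SP, so that with SP line 1 hardly moved. The SP library of line 1 also had the highest mitochondrial share, 5.06%, and its part in the result was not tested. By role, the 4 passenger complex genes had the highest median with CP (0.68) and all 4 had an unadjusted p under 0.05, while with SP the 4 checkpoint genes had the highest median (0.50). Those orders were not tested.

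**Figure D5:**
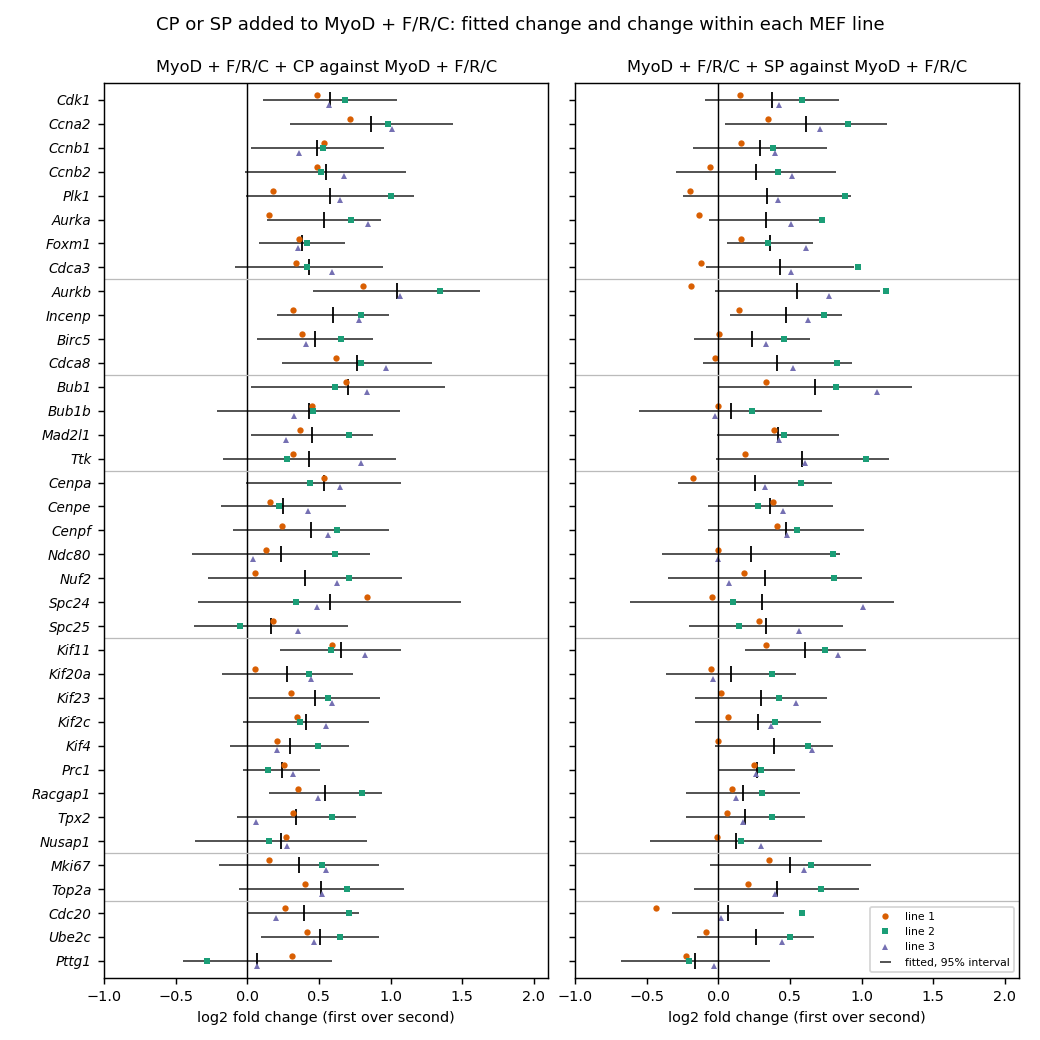
Log2 fold change of each mitotic gene when CP (left) or SP (right) was added to MyoD + F/R/C. Black ticks and lines give the edgeR estimate and its 95% interval, and coloured symbols the difference within each MEF line. With CP all 37 estimates lie above 0, between 0.07 and 1.04, and with SP 36 do.

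MyoD + F/R/C + CP against MyoD + F/R/C + SP compares the inhibitors directly. None of the 37 was called by edgeR or DESeq2 and 0 had an unadjusted p under 0.05 (4.01% of all genes), where edgeR called 0.0% of all genes higher and 0.197% lower and DESeq2 called 0.031% higher. In no gene were the groups of 3 apart with CP higher (5.07% of all genes), and 14 genes were higher with CP in all 3 lines (16.3% of all genes). The median was 0.15, with 29 genes positive, and the range ran from −0.17 (Spc25) to 0.49 (Aurkb). The median was −0.01 without line 1 and 0.29 without line 3 of the CP cultures. It was 0.23 without line 1 and 0.02 without line 3 of the SP cultures. Each of these runs dropped 1 library and kept its partner of the same line. Compared within lines 1, 2 and 3, the median differences were 0.28, 0.05 and 0.08, largest in line 1. For Aurkb the 95% interval of the difference was −0.09 to 1.06 and for Spc25 −0.70 to 0.37, so differences of up to those bounds between the inhibitors are within the intervals. Spc25 had 14.98, 10.3 and 13.0 CPM with CP and 16.1, 11.8 and 15.04 CPM with SP, and the groups overlapped.

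The genes moved together across libraries. Over the 12 transfected libraries the log2 CPM of a gene correlated with the mean of the other 36 at a median r of 0.957, with 0.791 for Spc25 the lowest and 0.991 for Ccna2 the highest. Over the 9 libraries with F/R/C the range was 0.505 (Spc25) to 0.985 (Ccna2). These are descriptions over libraries that share 3 MEF lines, their preparation and their scaling. Spc25, Spc24 and Pttg1 were the 3 lowest over the transfected libraries.

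Other genes of the cell cycle, from lists of the same kind, moved in part with the 37. Of 71 other mitotic genes, 69 were called lower and 1 higher in +MyoD cultures than in MEFs, with a median of −3.06. Of all genes 18.0% were called lower there and 22.8% higher. The exception was Psrc1, a spindle protein and known p53 target (1.39 ± 0.19), and the lowest were Sgo1, the shugoshin that protects centromeric cohesion, and Depdc1a, both at −4.37. With F/R/C 44 of the 71 were called higher and none lower (median 0.87), where 10.9% of all genes were called higher and 8.39% lower. Of 47 DNA replication genes all were called lower with MyoD mRNA alone, with a median of −2.42, between −4.57 for the replication initiation factor Mcm10 and −0.57 for the GINS subunit Gins4. With F/R/C 26 were called higher and none lower (median 0.75), against the same shares of all genes, 10.9% and 8.39%. Of 15 genes for core APC/C subunits and the activator Fzr1, which also act outside mitosis, 3 were called lower and 1 higher in +MyoD cultures (median −0.30), near or below the shares of all genes, 18.0% and 22.8%. None was called by edgeR in either direction with F/R/C, where 5 had an unadjusted p under 0.05, near the share of all genes (32.7%). Among these Anapc15 had the lowest value with MyoD mRNA alone (−1.11 ± 0.16) and Anapc2 the highest (0.58 ± 0.13).

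Among 20 genes for E2F factors, pocket proteins and the MuvB core, 14 were called lower and 3 higher in +MyoD cultures, where 18.0% of all genes were called lower and 22.8% higher. The lowest were Mybl2, for B-MYB, the partner of MuvB at CHR elements (−4.17 ± 0.30), and the repressor E2f7 (−4.10 ± 0.28). The highest were Rb1 (1.04 ± 0.26) and Rbl2 (0.79 ± 0.13), while Rbl1, the other gene for a pocket protein, a repressor of E2F targets, was called lower (−2.37 ± 0.22). With F/R/C 5 of the 20 were called higher, E2f2 the most (3.52), and 1 lower, E2f1 (−0.67). Of all genes 10.9% were called higher there and 8.39% lower. Of 10 CDK inhibitors and D cyclins, 5 were called higher and none lower with MyoD mRNA alone, where 22.8% of all genes were called higher. The largest changes were those of Cdkn2a, the locus of p16INK4a and ARF (3.30 ± 0.21), and Cdkn2b, for p15INK4b (1.84 ± 0.16). With F/R/C 3 were called higher, led by Cdkn1c, for p57 (2.02), and 3 lower, among them Ccnd1 (−1.42) and Ccnd2 (−1.09), where 10.9% of all genes were called higher and 8.39% lower. None of the genes in these lists was called by edgeR in the comparisons of CP or SP with F/R/C, or of CP with SP. With CP 22 of the 47 replication genes and 20 of the 71 other mitotic genes had an unadjusted p under 0.05, all of them positive, where 7.91% of all genes did. With SP 7 of the 47 and 8 of the 71 did, where 6.62% of all genes did.

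Markers of other cell types were read in every condition. The 8 macrophage markers summed to 12.1 to 23.9 CPM with CP, 9.62 to 10.4 CPM with SP, 6.89 to 10.8 CPM with F/R/C, 13.3 to 24.1 CPM in +MyoD cultures and 18.8 to 28.5 CPM in MEFs. Ptprc (CD45), a defining marker of blood cells, was at 0.960 CPM or less in every library. The 6 endothelial markers summed to at most 16.6 CPM in any library. Of the 6 erythroid markers Hba-a2 had nearly all counts, at 107 CPM in +MyoD cultures on average, and the synthetic mRNA carries an alpha-globin untranslated region. The fibroblast markers summed to 15863 to 47476 CPM in transfected cultures, led by Col1a1. Of these 8 markers, 7 were called higher in +MyoD cultures than in MEFs, where 22.8% of all genes were. Vim was not called there (−0.34). In MyoD + F/R/C against MEFs Vim was called lower (−1.38 ± 0.14), at 2241 CPM against 5845 CPM, and 7 were called higher. Of all genes 21.6% were called lower there and 26.6% higher. Against +MyoD, F/R/C gave 3 called higher and 2 lower (Vim and Col1a2), where 10.9% and 8.39% of all genes were. The 8 satellite cell markers summed to 454 to 561 CPM with CP, 362 to 593 CPM with SP, 330 to 434 CPM with F/R/C, 198 to 298 CPM in +MyoD cultures and 39.8 to 49.5 CPM in MEFs, with Itga7 the most abundant. With F/R/C 4 of the 8 were called higher than in +MyoD cultures (Pax7, Myf5, Fgfr4 and Cdh15), where 10.9% of all genes were. All 8 had positive fold changes with CP and with SP, none of them called by edgeR. With each inhibitor 3 had an unadjusted p under 0.05, where 7.91% of all genes did with CP and 6.62% with SP. DESeq2 was fitted over all genes, but its calls were counted for the mitotic genes and for all genes, not for these markers. Pax7 had 5.45 to 14.1 CPM with CP, 4.99 to 20.4 CPM with SP, 0.284 to 1.22 CPM with F/R/C and 0 counts in +MyoD cultures. The 5 neural markers summed to 51.8 to 208.6 CPM in transfected cultures and 30.3 to 44.5 CPM in MEFs, and the 6 epithelial markers to 15.1 to 43.4 CPM in transfected cultures and 80.8 to 95.4 CPM in MEFs. Snap25 and Elavl3 of the neural list and Cdh1 of the epithelial list were called higher with F/R/C. The part of these cells in the mitotic levels was not tested.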

How the data were processed

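RNA from 15 cultures, 3 MEF lines in each of 5 conditions, was sequenced by the authors as stranded, poly-A selected, single-end libraries. Per their notes, reads were trimmed with fastp 0.20.0 after bcl2fastq 2.20 and quantified with kallisto 0.46.1 against GRCm38.p6. The deposited files hold estimated counts per transcript, with reads shared between transcripts divided by kallisto, and the authors' TPM, a level per transcript length on a common total. The authors tested differences with DESeq2.

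Of 121843 transcripts, 121104 matched GENCODE M21 (GRCm38), and the other 739 held 0.236 to 0.327% of the counts and were left out. Estimated counts were added up over a gene's transcripts and rounded to whole numbers. TPM served to compare genes, and in one alternative to rebuild counts (lengthScaledTPM). edgeR 4.0.16 (R 4.3.3) fitted all 15 libraries with TMM factors and the condition as the only term, after its filter (minimum count 10, total 15). A gene was called at a Benjamini-Hochberg adjusted p of at most 0.05 over 19331 genes and a log2 change over 0.5 in size. CPM used TMM-scaled totals. Intervals use the fit's degrees of freedom. Whether kallisto used strand is not given in the sources used here. No pair of replicates was a duplicate (chi-square per degree of freedom at least 17.9). On data simulated for +MyoD against MEFs with 18300 genes, edgeR recovered 84% of genes changed by 2 on the log2 scale and 5% of those changed by 1, and DESeq2 1.42.0 86% and 18%. Every simulated gene had the same biological coefficient of variation, 0.35, and 100 genes were changed by each amount. Real genes differ in spread, so these shares are not the power for the mitotic genes.

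The replicate number names the MEF line, so it pairs the libraries. After group means were removed, libraries of the same line correlated at a mean r of 0.0737 (30 pairs, range −0.004 to 0.237). Those of other lines averaged −0.0368 (60 pairs). Removing group means ties that value to the same-line mean, so it is no separate check. Of the 15 libraries, 15 were closest to their own line.

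The mitotic genes and the other lists were chosen with earlier results of these data known. Values by library are given for the 2 genes of each role group with the highest mean TPM and for the genes with the highest and the lowest change in each comparison. Foxm1 was added after its values were seen. Of other lists, at most 2 genes at each end of a comparison are named, and Rbl1 and single marker genes were named after their values were seen. Alternatives were DESeq2, edgeR with RLE factors or with library totals, no or a stricter filter (50 counts in 3 libraries), the line as a block, only the 6 libraries compared, lengthScaledTPM counts and each library left out. Fits of only the 9 libraries with F/R/C and without the +MyoD libraries were chosen after seeing the data. Transcripts of the mitotic genes were compared with all others by blastn 2.17.0, and no other gene matched at 95% identity over 200 bases. Python 3.11.15 with pandas 2.3.3 and matplotlib 3.10.9 was used.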

Additional observations from a re-analysis of the deposited data

How the results depend on the processing

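For +MyoD against MEFs and for MyoD + F/R/C against MEFs, 37 genes were called lower and 0 higher under each alternative run. For MyoD + F/R/C against +MyoD, 31 were called higher. The count was 14 with only the 6 libraries compared and 20 with lengthScaledTPM counts, and the cause was not tested, although the smaller fit also had fewer degrees of freedom. It was 33 with DESeq2, 32 with RLE factors, 35 with library totals, 32 with no filter and 33 with the stricter filter. When each library was dropped in turn the count lay between 16 (line 1 of MyoD + F/R/C) and 31, and 21 without +MyoD line 1. With library totals the median of all genes in this comparison was 0.21 on the log2 scale, against 0.03 with TMM, and calls over all genes were 2795 higher and 996 lower, against 2114 and 1621, so that the mitotic median of 1.12 stood above a raised background. The replicate block, with the MEF line as a term, gave 31 in this comparison and changed no other count of mitotic genes. Over all genes, CP against F/R/C then gave 10 called higher and 27 lower, against 0 and 7 in the main fit. With only the 9 libraries with F/R/C it gave 41 and 111, and SP against F/R/C gave 18 and 9, against 0 and 0. Of the mitotic genes, CP against F/R/C gave 0 called, and 1 (Aurkb) with DESeq2. The log2 fold change of Pttg1 with CP, 0.07, turned to −0.04 without MyoD + F/R/C line 3 and to −0.24 without MyoD + F/R/C + CP line 1. The comparisons with SP and of CP with SP gave 0 mitotic genes called throughout. Of 1799 fold changes of single genes under alternatives, 1714 kept their direction and their side of the threshold, 70 lost and 13 gained the call, and 2 turned. All 70 losses and 12 of the gains were in MyoD + F/R/C against +MyoD, where 436 kept theirs. In the comparisons with MEFs all were kept. The total covers all 37 genes in the comparisons without CP or SP, but only selected genes in those with CP or SP. The median fold changes with CP, with SP and between them moved by over 1.5 times when single libraries were left out, as given with those comparisons. Spread also differed between conditions, with a biological coefficient of variation of 0.49 in +MyoD and 0.21 in MEFs fitted alone.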

Other observations

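The deposited values also divide each gene between transcripts, and this division was steady in some mitotic genes and not in others. Birc5-201 held a median of 97.3% of the Birc5 TPM over the 15 libraries, with 93.5 to 98.5%, so the survivin values rest on 1 transcript. Mki67-201 and Plk1-201 each had a median of 100% of their gene's TPM. In Pttg1 the share of Pttg1-205 ran between 0 and 90.8% from library to library, and in Kif20a that of Kif20a-201 between 0.00188 and 64.5%, so their isoforms were not compared between conditions. In Ccna2 a transcript annotated for nonsense-mediated decay, Ccna2-203, took a median of 35.6%, between 7.91 and 50.7%.

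Exons of 9 mitotic genes overlap a quantified gene on the opposite strand. Besides Ube2c and Tnnc2 (542 TPM on average for Tnnc2), these are Cdc20 with Elovl1, Ccna2 with Exosc9, Kif20a with Cdc23, Kif4 with Pdzd11, Cdca8 with 9930104L06Rik, Prc1 with Rccd1, Nusap1 with Oip5 and Plk1 with Gm44985. The largest mean level among the other 8 partners was 124 TPM, for Elovl1. Ube2c was called lower in +MyoD cultures than in MEFs, where Tnnc2 was called higher. With F/R/C both were called higher than in +MyoD cultures, Ube2c by 1.39 and Tnnc2 by 2.79 on the log2 scale, with Tnnc2 at 234 CPM in MyoD + F/R/C cultures and 33.9 CPM in +MyoD cultures. The part of Tnnc2 reads in the Ube2c value was not tested.

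Mitotic genes with a CHR word in the promoter window and those without one had similar values. In +MyoD against MEFs the median was −3.34 for the 23 with a CHR word and −3.03 for the 7 without, and in MyoD + F/R/C against +MyoD it was 0.94 and 1.02, with overlapping ranges.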
